A study of Homo sapiens with 10 samples.

Results

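SRF, its coactivator MRTFA and 8 contractile and actin-binding genes that they are known to switch on (ACTA2, ACTG2, TAGLN, CNN1, CNN2, MYL9, TPM1 and CALD1) were followed in U2OS cells after knockdown of the RNA helicase DDX41. The 10 members were chosen by gene symbol and matched to the count tables by Ensembl identifier. All of them were found among 63299 listed genes, of which 32705 had at least 1 count in any library. U2OS is an established human osteosarcoma line. The cells were grown in DMEM with 10% FBS and harvested 48 h after transfection of pooled siRNAs, either control siRNAs (control knockdown, 5 libraries) or siRNAs against DDX41 (DDX41 knockdown, 5 libraries). Polyadenylated RNA was sequenced, and the libraries held between 21807041 and 24896398 counts. Nothing in the labels says that the replicates came from separate cultures, so p-values measure only the spread between these libraries, which may be technical.

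SRF is a transcription factor that binds a short DNA element called the CArG box. MRTFA and MRTFB are held in the cytoplasm by monomeric actin, and they enter the nucleus and join SRF when monomers are taken up into filaments. Their targets encode actin itself and the proteins that bind, cross-link and contract it. A separate set of SRF partners, the TCF proteins ELK1, ELK3 and ELK4, connects SRF to growth factor signalling and to immediate early genes. Many of the MRTF targets are best known as markers of smooth muscle, but non-muscle cells use them in stress fibres.

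Levels were expressed as CPM, read counts scaled to the library total and to TMM factors, and changes as log2 fold changes of DDX41 knockdown against control knockdown with their standard errors (SE). Each SE was derived as the absolute log2 fold change divided by the square root of the F statistic of the edgeR test. DDX41 was looked at first, because it tests the group labels. It stood at 49.1, 49.4, 47.4, 47.1 and 50.5 CPM in control replicates 1 to 5 and at 11.4, 13.7, 12.4, 11.2 and 12.3 CPM in knockdown replicates 1 to 5. Every knockdown library was below every control library, and the level fell to 0.251 of control (log2 fold change -1.99, SE 0.05, edgeR adjusted p = 4.47e-24).

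The cells carried part of an osteoblast lineage pattern. Of 8 osteoblast lineage markers, COL1A1 was by far the most abundant, with a mean of 1875 ± 100.3 CPM (SD, n = 5) in control and 1766 ± 94.6 CPM (SD, n = 5) in knockdown, and RUNX2 was also present at 32.4 CPM in control. SP7, COL1A2, IBSP and BGLAP were at or below 0.583 CPM in every library except for COL1A2 in control replicate 2, at 0.735 CPM. Of the 8 markers, COL1A1, RUNX2, ALPL and SPP1 passed the filter on low counts. COL1A1 was not called (edgeR adjusted p = 0.0551), but it was called as lower without control replicate 4 (adjusted p = 0.00891) and with no filter on low counts (adjusted p = 0.0051). The p-values of the unfiltered fit differ much from those of the main fit, as described below. SPP1, a secreted bone matrix protein, rose (log2 fold change 0.66, edgeR adjusted p = 6.88e-07), and 2 fell, beside 30.3% higher and 32.1% lower among all tested genes: RUNX2 (-0.40, adjusted p = 2.24e-09) and ALPL (-0.70, adjusted p = 5.51e-06). The summed osteoblast markers lay between 1808 and 2043 CPM in control and between 1727 and 1952 CPM in knockdown.

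Several markers of muscle were at low levels. Among the 7 smooth muscle markers, the myosin MYH11 had no count in any of the 10 libraries, and SYNPO2, PLN, LMOD1 and DES were at or below 1.08 CPM throughout, while MYOCD was between 5.73 and 7.65 CPM in control. The most abundant of the list was SMTN, which is also made outside muscle, at 131 ± 10.1 CPM (SD, n = 5) in control and 126 ± 3.61 CPM (SD, n = 5) in knockdown. The summed list lay at 134, 149.9, 136, 128 and 153 CPM in control replicates 1 to 5 and at 129, 132, 132, 124 and 126 CPM in knockdown replicates 1 to 5. By edgeR, 4 of the 7 genes could be tested, 0 rose and 2 fell (DES and MYOCD), beside 30.3% and 32.1% of all tested genes; LMOD1 was higher at an unadjusted p under 0.05, and DESeq2 and limma-voom also called 0 higher and 2 lower.

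Of the 7 striated muscle markers, MYOG was at 0 in all libraries, and ACTA1, ACTC1, MYOD1 and CKM were at or below 0.292 CPM. The most abundant was TNNT2, at 24.9, 21.7, 21.7, 25.2 and 22.1 CPM in control and 25.9, 24.5, 24.4, 31.8 and 28.3 CPM in knockdown. The groups overlapped, and the change (log2 fold change 0.22, SE 0.07, edgeR adjusted p = 0.00846) was no longer called without control replicate 2, 3 or 5 or without knockdown replicate 1, 4 or 5, with adjusted p between 0.011 and 0.028. MYH3 was at 1.78 ± 0.399 CPM in control and 2.47 ± 0.675 CPM in knockdown (SD, n = 5 each) and was not called, but it was called as higher without control replicate 3 (edgeR adjusted p = 0.00729) or knockdown replicate 3 (adjusted p = 0.00111) and with no filter on low counts (adjusted p = 0.00286). The summed list stood at 25.4 ± 1.82 CPM in control and 29.7 ± 3.25 CPM in knockdown (SD, n = 5 each). Among 6 epithelial, blood and endothelial markers, CD3E was at 0 in all libraries, EPCAM was the most abundant at 7.99 CPM in control, and CDH1, PTPRC and PECAM1 were at or below 1.29 CPM. The sum of these 6 was 10.5 ± 0.424 CPM in control and 10.2 ± 0.813 CPM in knockdown (SD, n = 5 each). By edgeR, 4 of the 6 could be tested, 0 rose and 1 fell (CDH5, from 1.02 to 0.355 CPM). Of all tested genes, 30.3% rose and 32.1% fell. DESeq2 called 2 of the 6 as lower, where it called 4950 of 21854 tested genes as lower. Whether these markers had any part in the changes described next was not tested.

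The members moved in both directions after DDX41 knockdown. SRF, MRTFA, MYL9 and TPM1 fell, CNN2 and CALD1 rose, ACTA2, TAGLN and CNN1 were not called, and ACTG2 was too low to be tested. Of the 10 members, 4 were lower at an edgeR adjusted p under 0.01 beside 32.1% of all 16143 tested genes, and 2 were higher beside 30.3% of tested genes. In either direction 6 members were called, while 62.4% of all tested genes were, so the number of calls among the members lay close to the background. The same 4 members had every knockdown library below every control library, which held for 29.3% of tested genes, and the same 2 had every knockdown library above, which held for 26.7%. The median log2 fold change of the 9 tested members was -0.20 and that of all tested genes was 0.00. In RNA from whole cultures, fewer cells expressing a gene and less of its RNA per cell cannot be told apart.

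**Figure D1:**
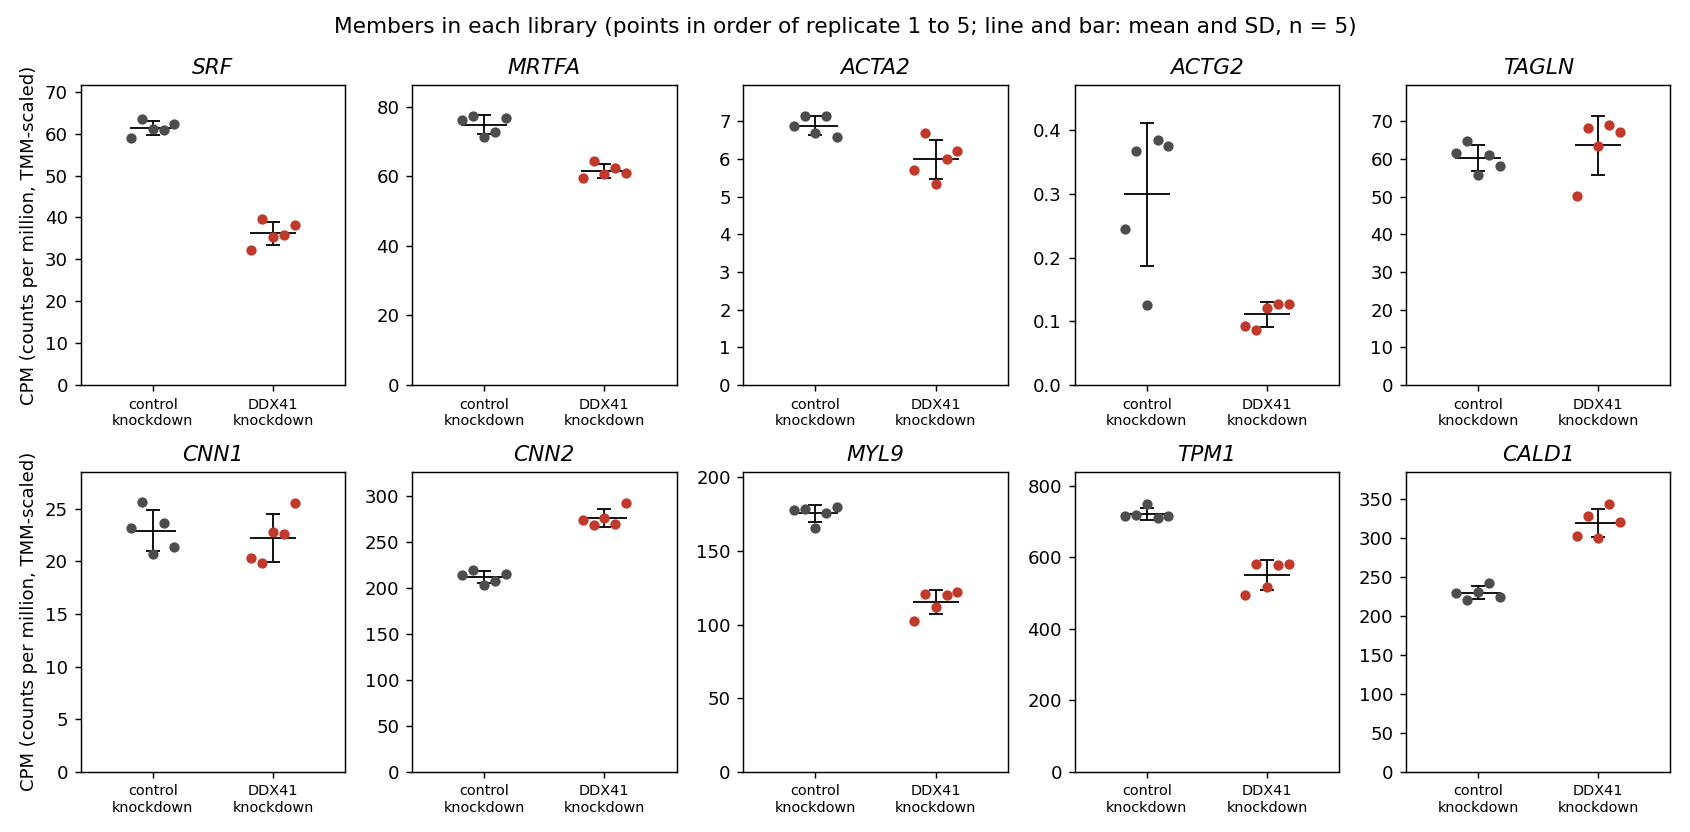
CPM of each member in the 5 control knockdown and 5 DDX41 knockdown libraries, with points in the order of replicates 1 to 5, the mean as a line and the SD as a bar; each vertical axis starts at 0. The groups are apart for SRF, MRTFA, MYL9 and TPM1 (knockdown lower) and for CNN2 and CALD1 (knockdown higher), and they overlap for ACTA2, ACTG2, TAGLN and CNN1.

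SRF (ENSG00000112658) lies on the plus strand at chr6:43171269-43181506 (GRCh38, GENCODE release 44). Its own upstream region is shown because it carries the element that SRF binds, and because SRF had the largest log2 fold change of the 9 tested members. The stretch ends at the base before the annotated start, from the RefSeq promoter table on GRCh38.p14 (chr6:43171224-43171268, plus strand), and the capitals mark 2 CArG boxes.
SRF: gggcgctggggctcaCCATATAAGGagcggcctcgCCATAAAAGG

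These boxes begin at positions -30 and -10 from the start. The 250 bases before each start in the same table were searched for the CArG box, a pattern that reads alike on both strands. Boxes were found in 407 of 35116 such windows (1.16%). Entries were present for 8 of the 10 members, with 15 windows between them, and 3 windows held a box, those of SRF, CNN2 and ACTG2; windows of the same gene can overlap. MYL9 and TAGLN had no entry. Most members were chosen as known targets of SRF, so no result is read from their share of windows with a box. A match is a description of the letters and not evidence of binding, and a window without one says nothing about SRF.

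The SRF transcript itself was at 59.0, 63.5, 61.1, 60.8 and 62.4 CPM in control replicates 1 to 5 and at 32.2, 39.5, 35.4, 35.8 and 38.1 CPM in knockdown replicates 1 to 5. No knockdown library reached the lowest control library, and knockdown replicate 1 was the lowest of all. SRF fell to 0.591 of control (log2 fold change -0.76, SE 0.04, edgeR adjusted p = 1.1e-15). None of the 84-base stretches of its transcripts in GENCODE release 44 occurred in another gene's transcripts. Whether its deposited counts depend on how reads shared between genes were handled was not tested.

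MRTFA (ENSG00000196588, chr22:40410281-40636719, minus strand) encodes the actin-regulated coactivator. It was at 76.1, 77.4, 71.4, 72.7 and 76.8 CPM in control and at 59.4, 64.4, 60.7, 62.3 and 60.9 CPM in knockdown. The groups did not overlap, and MRTFA fell to 0.822 of control (log2 fold change -0.28, SE 0.03, edgeR adjusted p = 1.63e-08). Part of its annotated sequence, 4.58% of its 84-base stretches, also lies in the pseudogene RPL4P6, which had 140 counts in the 10 libraries where MRTFA had 16174.

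The other SRF partners differed among themselves. MRTFB, the paralog of MRTFA, was at 94.4, 91.3, 105, 97.6 and 89.7 CPM in control and at 77.0, 85.7, 79.9, 77.4 and 80.2 CPM in knockdown, with no overlap (log2 fold change -0.26, SE 0.04, edgeR adjusted p = 1.66e-06). MYOCD encodes myocardin, the related coactivator of heart and smooth muscle. It was at 7.15, 6.98, 7.65, 5.73 and 7.62 CPM in control and at 0.966, 1.95, 1.29, 1.11 and 1.57 CPM in knockdown, so that all knockdown libraries were far below all control libraries (log2 fold change -2.34, SE 0.13, edgeR adjusted p = 1.93e-15). These levels rest on 845 counts in the control group and 161 in the knockdown group.

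Among the TCF proteins, ELK3 fell from a mean of 154 ± 3.67 to 106 ± 4.47 CPM (SD, n = 5 each; log2 fold change -0.53, SE 0.03, edgeR adjusted p = 2.2e-15). ELK1 rose from 95.1 ± 1.80 to 109 ± 2.35 CPM (SD, n = 5 each; log2 fold change 0.20, edgeR adjusted p = 6.69e-07). ELK4 also rose, with groups that overlapped (log2 fold change 0.18, edgeR adjusted p = 0.000138). SCAI, which is known as an inhibitor of MRTF-driven transcription, was at 13.9 ± 1.18 CPM in control and 15.5 ± 1.61 CPM in knockdown (SD, n = 5 each) and was not called (adjusted p = 0.0437). Thus 3 of these 6 partners fell and 2 rose, beside 32.1% and 30.3% of all tested genes, and their median log2 fold change was -0.05 beside 0.00. MYOCD is also counted among the smooth muscle markers and MRTFB among the paralogs.

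**Figure D2:**
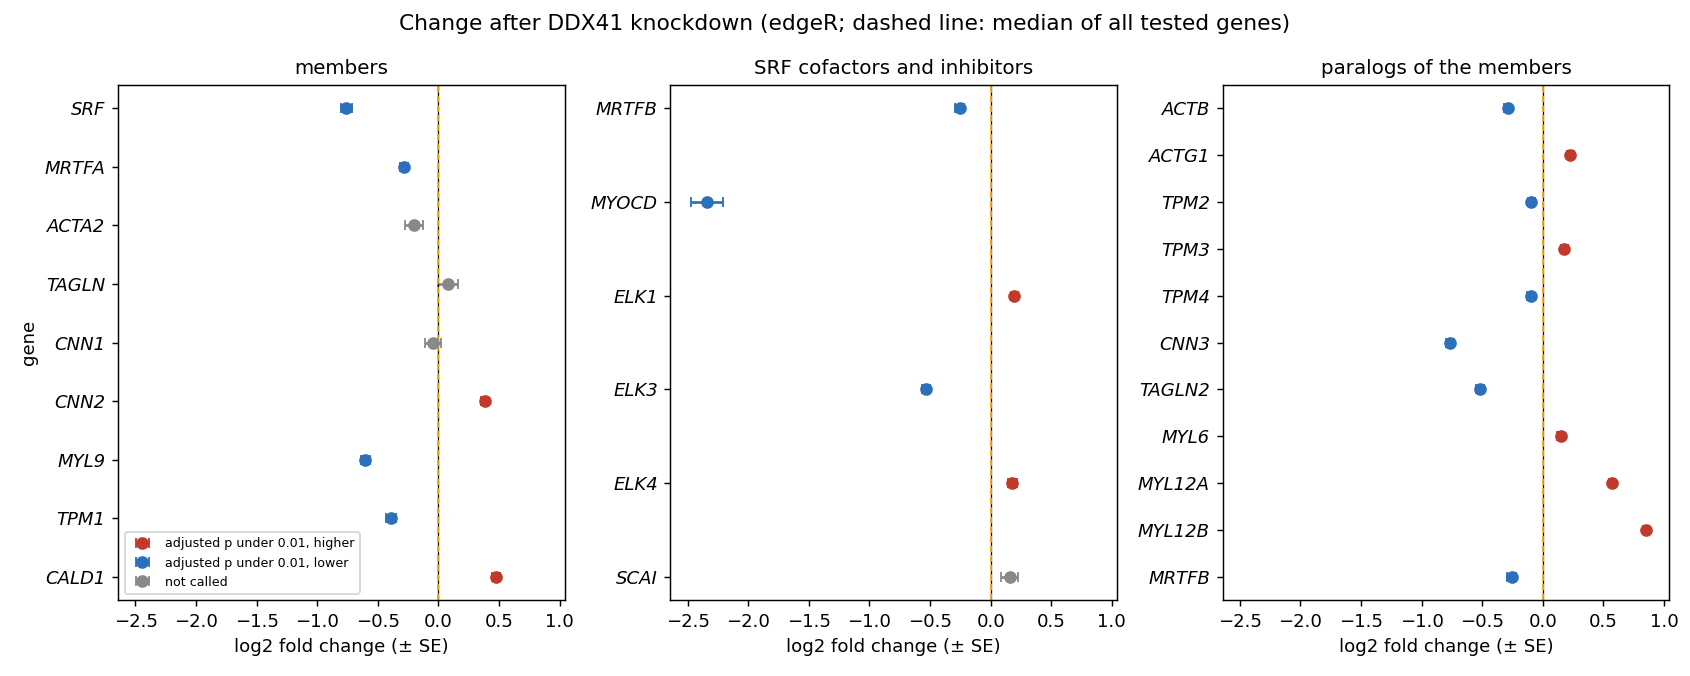
Log2 fold change of DDX41 knockdown against control knockdown (horizontal axis, bar: SE) for the tested members, the other SRF partners and the tested paralogs of the members, coloured by the edgeR call. MYOCD lies farthest from 0 at -2.34, and each of the 3 groups holds genes on both sides of the dashed median of all tested genes.

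The smooth muscle actins were the lowest members. ACTA2 (ENSG00000107796, chr10:88935074-88991339, minus strand) encodes smooth muscle alpha-actin, a part of stress fibres in contractile fibroblasts. It was at 6.86, 7.14, 6.69, 7.14 and 6.58 CPM in control and at 5.70, 6.69, 5.32, 6.01 and 6.21 CPM in knockdown. The groups met at knockdown replicate 2, and ACTA2 was not called (log2 fold change -0.20, SE 0.08, edgeR adjusted p = 0.0225). Without knockdown replicate 2 it was called as lower (log2 fold change -0.24, adjusted p = 0.00986). The counts of ACTA2 are open to its neighbours: it shares 6.88% of its exon bases with FAS on the opposite strand, which had 7991 counts in the 10 libraries against 1524 for ACTA2, and 29.1% with the antisense gene ACTA2-AS1, which had 43. Of the 84-base stretches of ACTA2, 5.5% also occur in transcripts of the gene ENSG00000286116. FAS rose from 30.6 to 37.0 CPM (log2 fold change 0.27, edgeR adjusted p = 1.68e-06), and the strand setting of the counting is not given in the sources used here.

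ACTG2 (ENSG00000163017, chr2:73892314-73919865, plus strand), the enteric smooth muscle gamma-actin, had 6, 9, 3, 9 and 9 counts in control replicates 1 to 5 and 2, 2, 3, 3 and 3 counts in knockdown replicates 1 to 5. Control replicate 3 lay among the knockdown libraries. With 36 and 13 counts in all, the gene did not pass the filter on low counts. When no filter was applied it was called as lower (log2 fold change -1.38, SE 0.47, edgeR adjusted p = 0.00971), a call that rests on these few counts.

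The actin-binding members include transgelin, the calponins and caldesmon, which bind along filaments. TAGLN (ENSG00000149591, chr11:117199370-117207464, plus strand) encodes transgelin, an early marker of smooth muscle. It was at 61.7, 64.7, 55.9, 61.1 and 58.1 CPM in control and at 50.3, 68.1, 63.5, 69.0 and 67.2 CPM in knockdown. Knockdown replicate 1 was below all other libraries and the remaining 4 knockdown libraries were above 4 of the control libraries. TAGLN was not called (log2 fold change 0.08, SE 0.08, edgeR adjusted p = 0.404). Without knockdown replicate 1 it was called as higher (log2 fold change 0.15, adjusted p = 0.00166).

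TAGLN also shares much sequence with other annotated genes. PCSK7 covers 34.1% of its exon bases on the opposite strand, and PCSK7 stood at 37.1 ± 1.64 CPM in control and 38.9 ± 1.49 CPM in knockdown (SD, n = 5 each; edgeR adjusted p = 0.136). The gene ENSG00000280143 covers 38.1% on the same strand, with 418 counts where TAGLN had 14683, and 35.4% of the 84-base stretches of TAGLN also occur in other transcripts. Another way of counting could therefore give TAGLN other values.

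CNN1 (ENSG00000130176, chr19:11538767-11550323, plus strand), the calponin of smooth muscle, was at 23.2, 25.6, 20.7, 23.6 and 21.3 CPM in control and at 20.3, 19.8, 22.8, 22.6 and 25.6 CPM in knockdown. The groups covered nearly the same range, and no change was called (log2 fold change -0.04, SE 0.07, edgeR adjusted p = 0.582). Its paralog CNN2, on the same chromosome, behaved differently. CNN2 (ENSG00000064666, chr19:1026586-1039068, plus strand) is the calponin of many non-muscle cells. The upstream region of CNN2 is shown because its window held a box, as did those of SRF and ACTG2. That of ACTG2, which held 2 boxes, is not shown. The stretch of CNN2 (RefSeq, GRCh38.p14, chr19:1026504-1026543, plus strand) has the CArG box in capitals, starting at position -89.
CNN2: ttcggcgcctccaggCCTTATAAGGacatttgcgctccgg

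CNN2 was at 213, 219, 203, 207 and 215 CPM in control and at 273, 268, 276, 269.5 and 292 CPM in knockdown. Every knockdown library was above every control library, and the level rose to 1.30 times control (log2 fold change 0.38, SE 0.03, edgeR adjusted p = 9.37e-13). SRF and CNN2, which both carry the box in the windows shown, thus changed in opposite directions.

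CALD1 (ENSG00000122786, chr7:134744252-134970729, plus strand) encodes caldesmon, which binds actin, myosin and tropomyosin. It was at 229.6, 219.9, 230.3, 242 and 225 CPM in control and at 302, 328, 300.1, 344 and 321 CPM in knockdown. The groups did not overlap, and CALD1 rose to 1.39 times control (log2 fold change 0.48, SE 0.03, edgeR adjusted p = 1.72e-12). The deposited counts are per gene and do not separate its smooth muscle and non-muscle isoforms.

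MYL9 and TPM1 belong to the contractile apparatus itself. MYL9 (ENSG00000101335, chr20:36541497-36551447, plus strand) encodes a regulatory light chain of myosin, whose phosphorylation switches on contraction. It was at 178, 179, 165, 176 and 179.7 CPM in control and at 103, 121, 112, 120.0 and 122 CPM in knockdown. All knockdown libraries were below all control libraries, and MYL9 fell to 0.658 of control (log2 fold change -0.60, SE 0.04, edgeR adjusted p = 1.49e-12).

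TPM1 (ENSG00000140416, chr15:63042620-63071915, plus strand) encodes alpha-tropomyosin, which lies along actin filaments and controls access of myosin and other proteins. It was at 715, 719, 749.8, 709 and 714 CPM in control and at 493, 582, 515, 578 and 582 CPM in knockdown. The knockdown libraries formed a wider group than the control libraries, with a coefficient of variation of 7.74% against 2.27%, and replicates 1 and 3 were its lowest. TPM1 fell to 0.763 of control (log2 fold change -0.39, SE 0.04, edgeR adjusted p = 2.59e-07). As for CALD1, its many isoforms were counted together.

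Levels can be compared between genes only per length, here as CPM per kb of the canonical GENCODE transcript. These lengths came from a later GENCODE release than the one used for counting, so they may include bases that were not counted. Whether the order of the members in either group depends on this was not tested. In control cells TPM1 was the highest member at 593 ± 13.4 CPM per kb (SD, n = 5), followed by CNN2 at 98.4 ± 2.90, MYL9 at 63.0 ± 2.11 and CALD1 at 45.8 ± 1.67 CPM per kb. None of these 4 overlapped with its neighbour in the order. MRTFA (16.6 ± 0.589 CPM per kb), TAGLN (15.9 ± 0.896), CNN1 (15.3 ± 1.31) and SRF (14.5 ± 0.407) formed a group in which each overlapped with the next. ACTA2 at 5.10 ± 0.191 and ACTG2 at 0.200 ± 0.0749 CPM per kb were below all of these.

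After DDX41 knockdown the order changed among the middle members. CALD1, at 63.7 ± 3.64 CPM per kb (SD, n = 5), then stood above MYL9, at 41.4 ± 2.95 CPM per kb. TAGLN (16.8 ± 2.05 CPM per kb), CNN1 (14.8 ± 1.54) and MRTFA (13.6 ± 0.418) were above SRF, which was at 8.56 ± 0.662 CPM per kb. TPM1 remained the highest at 452 ± 35.0 CPM per kb and ACTG2 the lowest at 0.0740 ± 0.0133 CPM per kb. The canonical transcript may not be the main isoform in these cells.

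**Figure D3:**
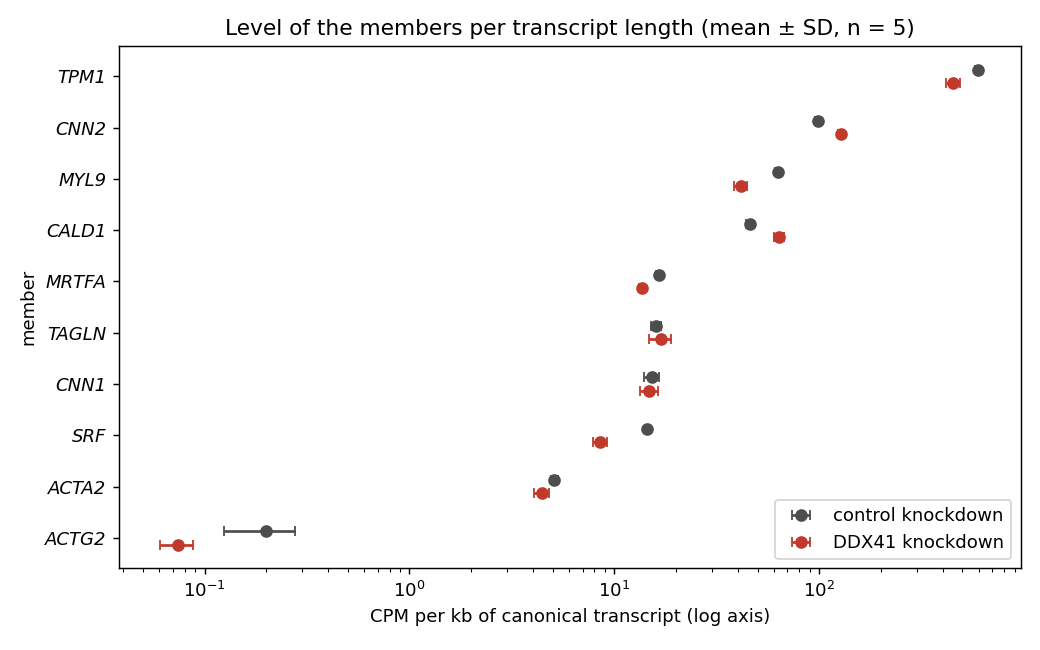
Mean CPM per kb of canonical transcript of each member (horizontal log axis, bar: SD, n = 5) in control knockdown and DDX41 knockdown libraries, ordered by the control level. TPM1 is at the top at 593 CPM per kb in control, ACTG2 at the bottom at 0.200 CPM per kb, and CALD1 and MYL9 exchange places between the groups.

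Several members have paralogs in the same cells, and the log2 ratio of the counts of such a pair within a library does not depend on how libraries were scaled. Such ratios were compared for 8 pairs with a two-sided exact permutation test of 5 against 5 libraries, whose smallest possible p is 0.00794, and p-values were adjusted over the 8 pairs. Of the 8 pairs, 6 differed between the groups at an adjusted p under 0.05. How often other pairs of genes differ was not tested, and 62.4% of all tested genes were called by themselves, so nothing particular to these pairs is read from this count.

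The regulatory light chains shifted against each other. The log2 ratio of MYL9 to MYL12A was -0.81, -0.74, -0.85, -0.86 and -0.76 in control replicates 1 to 5 and -2.15, -1.91, -1.97, -1.94 and -1.93 in knockdown replicates 1 to 5. MYL9 thus fell relative to MYL12A in every knockdown library, by 1.18 on the log2 scale (knockdown minus control -1.18, exact permutation p = 0.00794, adjusted p = 0.0127). The partner itself rose: MYL12A, a light chain of non-muscle myosin, went from 307 ± 8.61 to 456 ± 10.1 CPM (SD, n = 5 each; log2 fold change 0.57, edgeR adjusted p = 1.22e-17). MYL12B, its close paralog, rose as well, from 782 ± 10.7 to 1410 ± 48.6 CPM (log2 fold change 0.85, edgeR adjusted p = 5.56e-22).

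The calponins also shifted against each other. The log2 ratio of CNN2 to CNN3, the third and acidic calponin, was -1.72, -1.62, -1.75, -1.75 and -1.66 in control and -0.48, -0.61, -0.48, -0.69 and -0.47 in knockdown, with no overlap (difference 1.15, exact permutation p = 0.00794, adjusted p = 0.0127). CNN3 fell from 686 ± 12.4 to 403 ± 21.8 CPM (SD, n = 5 each; log2 fold change -0.77, edgeR adjusted p = 2.45e-19) while CNN2 rose. For CNN1 to CNN2 the log2 ratio was -3.20, -3.09, -3.29, -3.13 and -3.33 in control and -3.75, -3.76, -3.59, -3.58 and -3.51 in knockdown, again apart (difference -0.43, exact permutation p = 0.00794, adjusted p = 0.0127). This tests directly that CNN1 and CNN2 changed unequally.

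TAGLN rose relative to TAGLN2, the transgelin of many non-muscle cells. Their log2 ratio was -3.58, -3.56, -3.61, -3.57 and -3.64 in control and -3.25, -2.85, -3.01, -2.96 and -2.96 in knockdown (difference 0.59, exact permutation p = 0.00794, adjusted p = 0.0127). Knockdown replicate 1, where TAGLN was low, was the knockdown library closest to control. TAGLN2 fell from 727 ± 29.8 to 508 ± 24.1 CPM (SD, n = 5 each; log2 fold change -0.52, edgeR adjusted p = 3.97e-14), while TAGLN itself was not called.

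For TPM1 to TPM2, which encodes beta-tropomyosin, the log2 ratio was 1.35, 1.35, 1.47, 1.34 and 1.30 in control and 0.91, 1.19, 0.96, 1.14 and 1.11 in knockdown (difference -0.30, exact permutation p = 0.00794, adjusted p = 0.0127). TPM2 changed little, from 281 ± 7.15 to 263 ± 5.43 CPM (SD, n = 5 each; log2 fold change -0.10, edgeR adjusted p = 0.00222), and was not called without control replicate 5 (adjusted p = 0.0116). For the coactivators, the log2 ratio of MRTFA to MRTFB was -0.35 ± 0.14 in control and -0.38 ± 0.04 in knockdown (SD, n = 5 each), with overlapping groups (exact permutation p = 0.746, adjusted p = 0.746).

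The muscle actins were compared with cytoplasmic beta-actin. ACTB was at 7327 ± 257 CPM in control and 5993 ± 238 CPM in knockdown (SD, n = 5 each; log2 fold change -0.29, SE 0.03, edgeR adjusted p = 2.46e-10). The log2 ratio of ACTA2 to ACTB was -10.05 ± 0.07 in control and -9.97 ± 0.10 in knockdown (SD, n = 5 each), with overlapping groups (exact permutation p = 0.159, adjusted p = 0.181). For ACTG2 to ACTB it was -14.57 ± 0.59 and -15.48 ± 0.19 (exact permutation p = 0.0317, adjusted p = 0.0423). That last call was lost when 1 count in place of 0.5 was added to each gene (adjusted p = 0.0529) and without any single library other than control replicate 3 (adjusted p between 0.0544 and 0.0847).

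**Figure D4:**
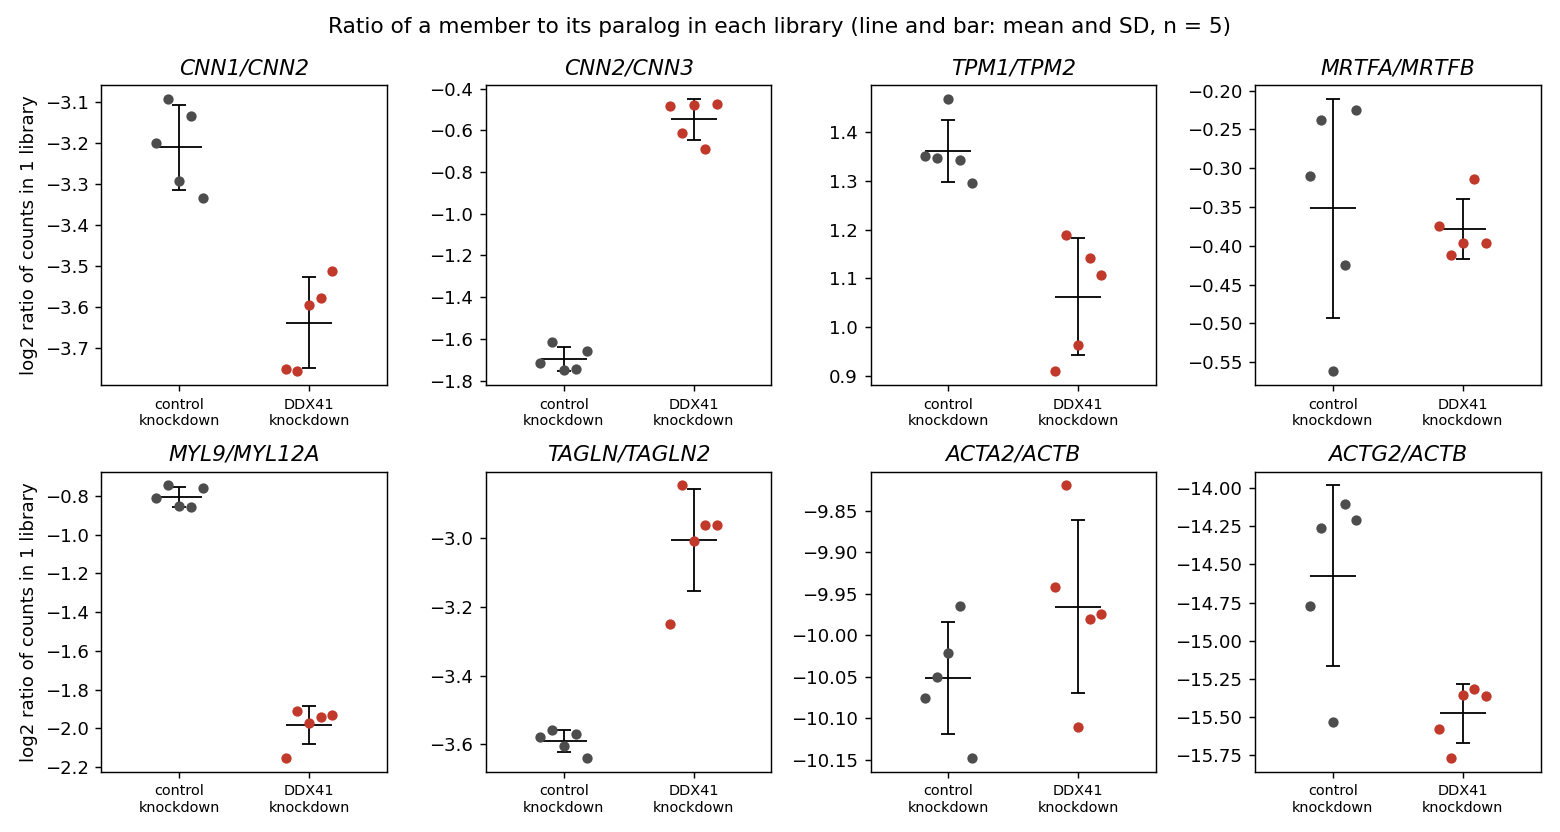
Log2 ratio of the counts of a member to those of its paralog in each of the 5 control knockdown and 5 DDX41 knockdown libraries, with the mean as a line and the SD as a bar; the vertical axes differ between panels and do not start at 0. The groups are apart for CNN1/CNN2, CNN2/CNN3, TPM1/TPM2, MYL9/MYL12A and TAGLN/TAGLN2 and overlap for the other 3 pairs.

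Over the whole list of 14 paralogs, 11 could be tested and all of these were called, 5 as higher and 6 as lower, beside 62.4% of all tested genes, with a median log2 fold change of -0.10. With DESeq2, and without control replicate 1, 4 or 5 or knockdown replicate 1, 5 were called as lower. The cytoplasmic actins went apart: ACTB fell, while gamma-actin ACTG1, named after its values were seen, rose from 2754 ± 129 to 3226 ± 79.6 CPM (SD, n = 5 each; log2 fold change 0.23, SE 0.03, edgeR adjusted p = 2.83e-08). These directions were the same under each scaling of the libraries that was tried.

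Other known MRTF-SRF targets of the cytoskeleton also moved in both directions. Of 22 such genes, 21 were tested, 11 rose and 7 fell, beside 30.3% and 32.1% of all tested genes, and their median log2 fold change was 0.15 beside 0.00 for all tested genes. ACTB, ACTG1 and TPM2 are in this list and among the paralogs, so the counts of these lists are not separate. The largest increases were those of CCN2 and CCN1, secreted matricellular proteins that are also known targets of YAP. CCN2 was at 549, 579, 583, 557 and 582 CPM in control and at 1454, 1586, 1451, 1496 and 1527 CPM in knockdown. CCN1 was at 382, 384, 371, 372 and 363 CPM in control and at 938, 957, 959, 992 and 969.6 CPM in knockdown. CCN2 rose to 2.64 times control (log2 fold change 1.40, SE 0.03, edgeR adjusted p = 3.19e-26) and CCN1 to 2.57 times control (log2 fold change 1.36, SE 0.03, edgeR adjusted p = 1.76e-26).

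Other genes of the same list fell. VCL encodes vinculin, which links integrin adhesions to actin. It was at 410.0, 379.8, 393, 402 and 391 CPM in control and at 181, 212, 190.1, 199 and 205 CPM in knockdown, a fall to 0.499 of control (SE 0.03 on the log2 scale, edgeR adjusted p = 9.14e-20). FHL1, a LIM domain protein of muscle and adhesions, was at 151, 147, 141, 154 and 146 CPM in control and at 75.6, 74.9, 73.4, 77.1 and 73.1 CPM in knockdown (log2 fold change -0.98, SE 0.03, edgeR adjusted p = 1.02e-21). The actin cross-linker ACTN1 and the adhesion protein ZYX, named after their values were seen, fell as well (log2 fold change -0.69, edgeR adjusted p = 6.04e-17, and -0.72, adjusted p = 6.68e-15). In contrast the cross-linker FLNA and the non-muscle myosin heavy chain MYH9, chosen in the same way, rose (log2 fold change 0.27, edgeR adjusted p = 7.86e-10, and 0.35, adjusted p = 2.54e-13).

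CArG boxes were found on both sides of this division. In this list 10 of 44 windows held a box (22.7%, beside 1.16% of all windows), in 8 of 20 genes with an entry. The genes were chosen as known targets of SRF, so this share follows from the choice and no result is read from it. Windows of the same gene can overlap. Of these 8 genes, 3 rose, 3 fell, 1 was not called and 1 was not tested. Among all tested genes 30.3% were higher and 32.1% lower, so nothing particular to genes with a box is read from these calls. The 4 shown were picked because they changed in opposite directions: ACTG1 and FLNA rose, ACTN1 and FHL1 fell. The stretches are from RefSeq on GRCh38.p14, each on the strand of its gene and upstream of an annotated start, with the box in capitals: ACTG1 at chr17:81512869-81512908 (minus strand), FLNA at chrX:154374704-154374743 (minus), ACTN1 at chr14:68977713-68977752 (minus) and FHL1 at chrX:136196906-136196945 (plus).
ACTG1: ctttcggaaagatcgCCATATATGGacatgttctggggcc
FLNA: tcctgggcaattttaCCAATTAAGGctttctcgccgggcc
ACTN1: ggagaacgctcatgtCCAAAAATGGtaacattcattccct
FHL1: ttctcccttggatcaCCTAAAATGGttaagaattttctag

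The box of ACTG1 and that of FLNA both begin at position -94 from the start of their window, that of FHL1 at -126 and that of ACTN1 at -171. For ACTN1 1 of 4 annotated starts in the table held a box, and for FHL1 1 of 12.

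Immediate early genes, which SRF controls together with the TCF proteins, were described as a list of 9. All were tested, 4 rose, 1 fell and 4 were not called, beside 30.3% higher and 32.1% lower among all tested genes, and the median log2 fold change was 0.24 beside 0.00. IER2 was at 44.6, 53.3, 46.4, 49.9 and 51.7 CPM in control and at 83.0, 83.6, 83.6, 79.5 and 87.6 CPM in knockdown, the largest increase of the list (log2 fold change 0.76, SE 0.04, edgeR adjusted p = 1.31e-15). MCL1, an anti-apoptotic protein, rose from 294 ± 5.52 to 393 ± 6.67 CPM (log2 fold change 0.42, edgeR adjusted p = 5.05e-15), and FOS and EGR1 each rose by 0.36 on the log2 scale (edgeR adjusted p = 5.88e-07 and 0.000293). EGR3 fell at a low level, from 1.01 ± 0.119 to 0.558 ± 0.165 CPM (SD, n = 5 each; log2 fold change -0.85, edgeR adjusted p = 0.000909). With a filter of 1 CPM in 5 libraries EGR3 was not tested, and 0 genes of this list were called as lower.

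The other 4, FOSB, EGR2, JUNB and NR4A1, had log2 fold changes of -0.16, -0.30, 0.24 and 0.16. With no filter on low counts, JUNB (edgeR adjusted p = 3.87e-05) and NR4A1 (adjusted p = 0.00372) were called as higher. That fit gave far smaller adjusted p-values than the main fit for many genes, as described below. JUNB was also called as higher by DESeq2 (adjusted p = 0.00855) and limma-voom (adjusted p = 0.00643) and without control replicate 2 or 5 (edgeR adjusted p = 0.000443 and 0.00601). NR4A1 was also called without knockdown replicate 1 (edgeR adjusted p = 0.00634) and EGR2, as lower, without knockdown replicate 2 (adjusted p = 0.00389).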

How the data were processed

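The authors sequenced stranded polyA libraries (84-base single reads) and deposited whole-number read counts per gene for each library, without normalization. Their notes name bcl2fastq 2.19, STAR 2.7, featureCounts 1.6 and hg38, and they used Gencode release 25. The strand setting and the handling of multiply mapped reads are not given in the sources used here.

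Groups and replicate numbers came from the labels. The count model was edgeR 4.0.16 under R 4.3.3: filterByExpr kept 16143 genes, TMM scaled the libraries, and robust quasi-likelihood fits were called at a Benjamini-Hochberg adjusted p under 0.01. The script was tested on simulated counts. Within-library ratios had 0.5 counts added to each gene and were tested with scipy 1.17.1. Alternatives included DESeq2 1.42.0 and limma 3.58.1. Names, positions, lengths, exon overlaps and shared stretches came from GENCODE release 44. The biological coefficient of variation was 3.65%, and genes at a few counts are less certain.

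The members and lists were chosen with earlier results of these data known. Genes named are the members, DDX41, the genes of each pair, whole lists of up to 9 genes, and from longer lists the 4 with the smallest adjusted p and the 2 with the largest change at 5 CPM or more. FAS, PCSK7 and other genes that share exon bases or reads with a member were added. ACTN1, ZYX, FLNA, ACTG1 and MYH9 were chosen after their values were seen. A further marker gene and a further gene list are not reported here.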

Additional observations from a re-analysis of the deposited data

Results flagged for a closer look

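In 6 of 122 groups of 5 libraries examined, a single library lay far from the other 4, measured as its gap to the nearest of them against the whole range of the group. Chance alone gives such a library in about 1 in 20 groups. No cause was tested for any of these.

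Among the members, MYL9 was low in control replicate 3 (165 CPM) and TPM1 was high in the same library (749.8 CPM). The log2 ratio of MYL9 to MYL12A was lowest in knockdown replicate 1 (-2.15). For both genes and this ratio the groups did not overlap.

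Of the other genes, ELK3 was high in knockdown replicate 4 (114 CPM), RUNX2 was high in knockdown replicate 2 (26.1 CPM) and SPP1 was high in control replicate 1 (21.0 CPM).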

How the results depend on the processing

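Directions and calls of SRF, MRTFA, CNN2, MYL9, TPM1, CALD1 and DDX41 were the same under RLE scaling, total counts without a factor, no filter, a filter of 1 CPM in 5 libraries, DESeq2, limma-voom and without each library in turn. Leaving out a library gave between 2 and 3 members upregulated and between 4 and 5 downregulated. With an absolute log2 fold change over 1 also required, 0 members were upregulated and 0 downregulated, since no tested member changed that much (SRF changed most, at -0.76), and among all tested genes 410 were upregulated and 982 downregulated.

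Replicate numbers did not pair the libraries: same-numbered libraries correlated between -0.15 and 0.12 in their deviations from group means over 11278 genes. A fit that took these numbers as a block had 2 members upregulated and 4 downregulated, as without it, and 4790 and 5097 of all tested genes. COL1A1, not called in the main fit, was called as lower under it (edgeR adjusted p = 0.00853). For the paralog ratios, sign changes over 5 such pairs cannot give p below 0.0625, so 0 pairs passed under the block, which says nothing about their stability.

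Depth limits ACTG2, at 2 to 9 counts a library.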

Other observations

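Libraries took different places across the members. Knockdown replicate 1 was the lowest of its group in 5 of the 9 tested members, and knockdown replicates 4 and 5 in 0. Among control libraries, replicate 3 was the lowest in 5 and replicate 2 the highest in 5. Total counts of knockdown replicate 1 were the lowest of all libraries, at 21807041. Whether these places have a common source was not tested.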
